A study of Mus musculus with 53 samples.

Results

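The Rab GTPases are a family of small GTP-binding proteins that sit on the membranes of transport vesicles and organelles. They were taken from the gene tables as every locus whose symbol is Rab followed by a number, with or without a letter, so that the proteins that act on Rabs (Rab11fip1 to Rab11fip5, Rab3gap1, Rab3gap2, Rab3il1 and Rab3ip among them) stayed out. This gave 58 of 23847 loci. The levels were measured by RNA-seq in bone marrow-derived macrophages (BMDMs) of WT C57BL/6 mice and of mice in which Stat6 is deleted in the whole body (Stat6-/-), aged 8-12 weeks. Marrow cells were kept for 6 days in L929 supernatant, a source of the macrophage growth factor M-CSF, and then received 20 ng/ml of IL-4 for 1, 3, 6 or 24 h or served as control of the same time, with one more control at 0 h. All groups share this culture. There were 4 WT samples per group, except that WT with 24 h of IL-4 had 3 (replicate 1 was not analysed here), and 2 Stat6-/- samples per group, 53 in all. Values are FPKM, the fragments of a gene scaled by the length of its transcript and the mapped fragments of the library, so levels of different genes can be set side by side.

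A Rab works as a switch. Exchange factors load it with GTP, which lets it bind effectors that tether, move or fuse a vesicle, GTPase activating proteins return it to the GDP form, and GDP dissociation inhibitors lift it off the membrane for another round. Rabs are grouped here by the compartment each is best known from, though some act at several. Rab5 proteins are known from early endosomes and young phagosomes, Rab7 from late endosomes and lysosomes, and Rab11 and Rab4 proteins from recycling membranes. Rab1 and Rab2 act between the endoplasmic reticulum and the Golgi, and Rab8 and Rab10 on carriers to the cell surface. Rab27, Rab32 and Rab38 belong to secretory and lysosome-related organelles. Transcript levels show neither the protein nor its place in the cell. IL-4 signals in these cells through the transcription factor STAT6 and drives the alternative polarization of macrophages, which the study followed over time and in cells without STAT6.

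The FPKM of a sample summed to between 385889 and 464915, 10017 to 10380 loci reached 1 FPKM, and relative depth, read from the steps between low values, ran from 0.708 to 1.56 times the median sample; the number of reads behind a value is unknown, and counting intervals are left out. Stat6 itself, the targeted gene, was at 58.7 to 90.6 FPKM in WT and at 14.3 to 24.0 FPKM in Stat6-/- samples, with no overlap. All 6 macrophage markers looked at (Emr1, Csf1r, Cd68, Itgam, Mertk and Fcgr1) were present, with a summed level of 2889 to 3825 FPKM in WT controls, 2604 to 3436 FPKM in WT with IL-4 and 3418 to 4469 FPKM in Stat6-/- samples. Markers of T cells, B cells and fibroblasts all stayed under 1 FPKM, at sums of at most 0.314, 0.748 and 0.841 FPKM. The mast cell and basophil list summed to at most 2.59 FPKM, the dendritic cell list to 0.409 to 7.30 FPKM and the endothelial list to 2.28 to 5.87 FPKM in WT controls against 2.05 to 19.2 FPKM in WT with IL-4. Of the erythroid and megakaryocyte list, at 105 to 395 FPKM in sum, only Pf4 passed 1 FPKM. The neutrophil and progenitor list (S100a8, S100a9, Mpo, Elane and Camp) summed to 269 to 550.2 FPKM in WT controls, 195 to 480.1 FPKM in WT with IL-4 and 514 to 963 FPKM in Stat6-/- samples. The part of these marker differences in the results was not tested. One library stood apart for this family: the WT 0 h control of replicate 1 was the lowest of its 4 samples for 22 of 45 Rab genes and the highest for 16. Values of the 0 h comparisons are therefore also given without it.

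The BMDMs made a broad set of Rab transcripts. Together the 58 genes summed to 1597 to 1864 FPKM per sample, which was 0.368% to 0.442% of all FPKM. In WT controls at 0 h, 31 members had a mean of at least 10 FPKM, 9 were between 1 and 10 FPKM and 18 were below 1 FPKM. The 5 highest were Rab5c of early endosomes at 193, 199.7, 223 and 242 FPKM, Rab7 of late endosomes at 219, 148, 127 and 151 FPKM, Rab1 at 90.1, 120.2, 117 and 116 FPKM, Rab1b at 119, 90.3, 102 and 103 FPKM and Rab8b at 71.5, 99.7, 94.8 and 86.2 FPKM, in the order of replicates 1 to 4. These 5 made up 40.8% of the Rab sum. The samples of neighbours in this order overlapped, except that every Rab7 sample lay above every sample of Rab1. The other early endosome isoforms were far below Rab5c, with Rab5b at 33.0, 43.4, 45.2 and 45.3 FPKM and Rab5a at 21.7, 34.5, 33.9 and 31.7 FPKM. Both pairs of paralogs of fast and slow recycling were uneven as well: Rab11a stood at a mean of 51.8 ± 3.26 FPKM (SD, n = 4) against 17.5 ± 2.44 FPKM for Rab11b, and Rab4b at 38.7 ± 5.95 FPKM against 0.815 ± 0.125 FPKM for Rab4a. Of the Rab4b sequence, however, 80.3% of all 50-base words also occur in an overlapping annotated transcript, Gm21983, so its level is uncertain.

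**Figure D1:**
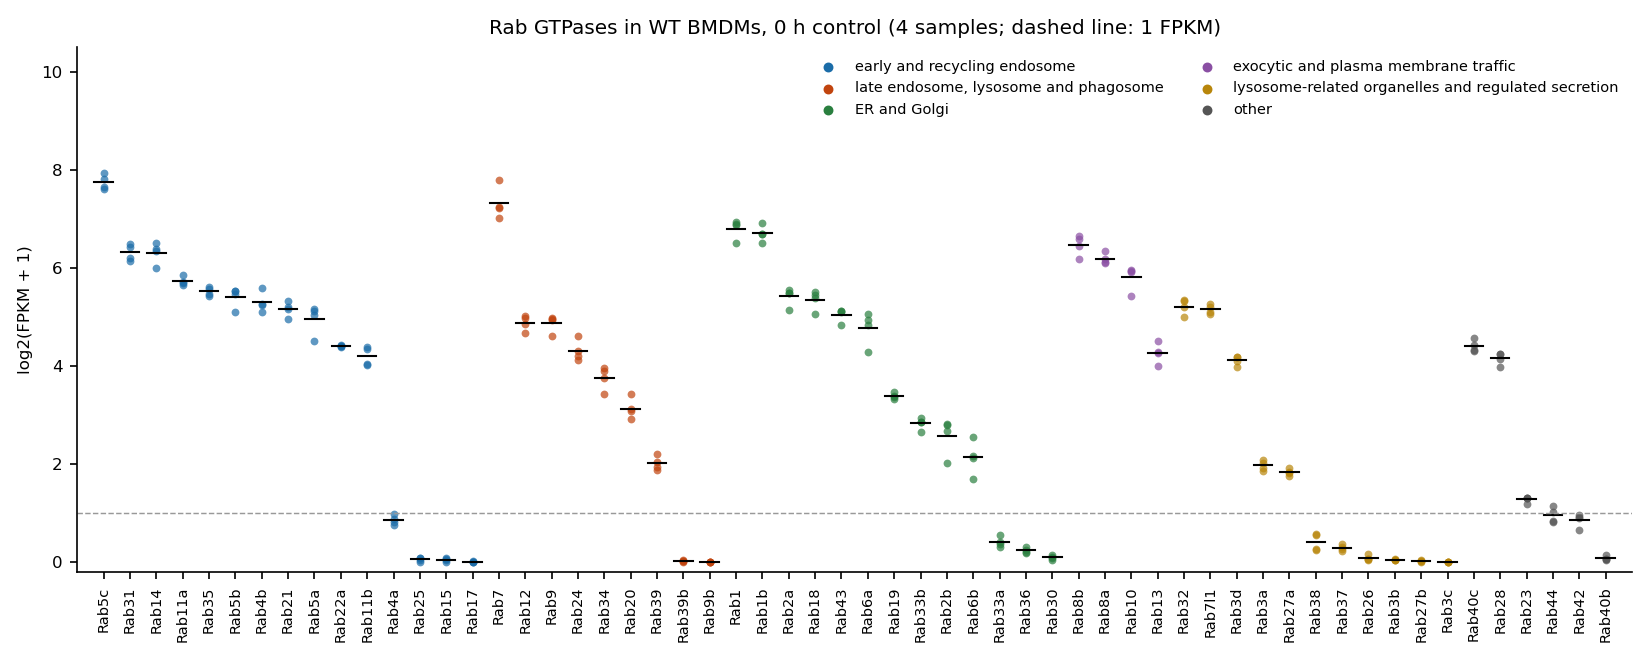
Level of each of the 58 Rab GTPases in WT BMDMs at 0 h, as log2(FPKM + 1), with 1 point per sample (n = 4), a bar at the mean and colours for the role of the gene; the dashed line is 1 FPKM. Rab5c and Rab7 are the highest, and 18 members have a mean below 1 FPKM.

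Of the 58 members, 13 stayed below 1 FPKM in all 53 samples and were not tested: Rab17, Rab25, Rab26, Rab27b, Rab30, Rab33a, Rab36, Rab37, Rab39b, Rab3b, Rab3c, Rab40b and Rab9b. Several of them are known from epithelia, neurons or the secretory granules of other cells, such as Rab17 and Rab25 of apical recycling and the synaptic vesicle Rabs Rab3b and Rab3c. The highest value among the 13 was 0.661 FPKM, for Rab33a. The other 45 members entered the test, of which 37 were at 1 FPKM or more in every sample. Rab15 and Rab38 reached 1 FPKM in a single sample each, with 3 h of IL-4 in WT, so that these genes passed this limit through a group in which they were high. They stayed in the fit and are part of its counts, but their values are read as a description only.

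To ask how IL-4 changes vesicle traffic genes, each time point in WT was compared with its own control. Rab44, Rab19 and Rab8b rose and Rab40c, Rab32 and Rab43 fell within the first hours, and by 24 h most changes were decreases, led by Rab39, Rab20, Rab27a, Rab32 and Rab6b. Changes are differences in log2(FPKM + 1), which understates those of low genes, from a limma fit over all samples, and a gene is said to have risen or fallen at an adjusted p below 0.05 over the 11146 loci tested. The paper counts 4 WT and 2 Stat6-/- animals, but the labels do not say what a replicate number marks. The p-values therefore measure the spread between these samples. In bulk RNA, fewer cells of a type and less RNA per cell cannot be told apart. At 1 h, 3 of 45 Rab genes rose and 2 fell, where 5.67% of all loci rose and 3.72% fell. At 3 h, 10 rose (22.2%) and 6 fell (13.3%), beside 16.4% and 12.5% of all loci. At 6 h, 12 rose (26.7%) and 10 fell (22.2%), against 22.0% and 19.2% of all loci. These shares were close to the background. The increases include Rab15 at 1, 3 and 6 h and Rab38 at 3 and 6 h, without which 2, 8 and 10 genes rose. At 24 h only 4 rose (8.89%) and 17 fell (37.8%), beside 23.4% and 31.6% of all loci, and the median difference was -0.18 for the Rab genes and -0.07 for all loci tested. The balance at 1 and 6 h depended on scaling. At 6 h it was 12 higher and 10 lower as deposited, 9 higher and 12 lower after quantile normalization and 10 of each when the 10 most abundant loci were left out of the scaling, and at 1 h these scalings gave 2 of each, and 4 higher and 1 lower. At 24 h the decreases were in the majority under both scalings (5 higher and 15 lower, and 3 higher and 19 lower). With the replicate number as a block, 4 rose and 6 fell at 1 h, and 12 and 9 at 3 h. Of all loci 1023 and 885, and 2408 and 2172, then did. At 6 h 14 rose and 15 fell, beside 3109 and 3045 of all loci. At 24 h it was 6 and 24, beside 3046 and 4333.

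Most changes were small on this scale. A difference of at least 1 in log2(FPKM + 1), called 2-fold here, was reached by no Rab gene at 1 h. At each of 3, 6 and 24 h, 2 of 45 (4.44%) reached it. Of all loci 1.49%, 3.88%, 5.54% and 8.50% did at 1, 3, 6 and 24 h. The Rab genes were Rab19 and Rab44 at 3 and 6 h and Rab19 and Rab39 at 24 h. The ratio of FPKM itself can be larger than this scale shows. Rab27a stayed under the limit at 24 h, with 0.326 to 0.392 FPKM with IL-4 and 1.36 to 1.95 FPKM in controls. So did Rab20, at 3.74 to 5.17 and 9.19 to 10.7 FPKM. Over the time course 31 of 45 tested members (68.9%) changed at least once, beside 70.9% of all loci. Of these, 12 only rose (26.7%, against 30.2% of all loci) and 17 only fell (37.8% against 35.1%). The other 2, Rab8b and Rab24, rose first and were lower at 24 h. Rab15 and Rab38 are among the 31 and the 12, and each call of Rab24 was lost when some WT replicate was left out. All 10 genes that were higher at 3 h, Rab15 and Rab38 among them, were higher at 6 h too. Just 2 of the 12 that were higher at 6 h, Rab19 and Rab22a, were still higher at 24 h. Of the 10 that were lower at 6 h, 8 were lower at 24 h. The 14 members called at no time included the Rab5 isoforms, Rab1, Rab6a, Rab8a, Rab10, Rab31 and Rab4a. A missed call does not show an unchanged level. For example, Rab4a at 6 h, Rab31 at 24 h and Rab11b at 1 and 24 h did not overlap between IL-4 and control. Rab4a was called at 6 h with the replicate number as a block.

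**Figure D2:**
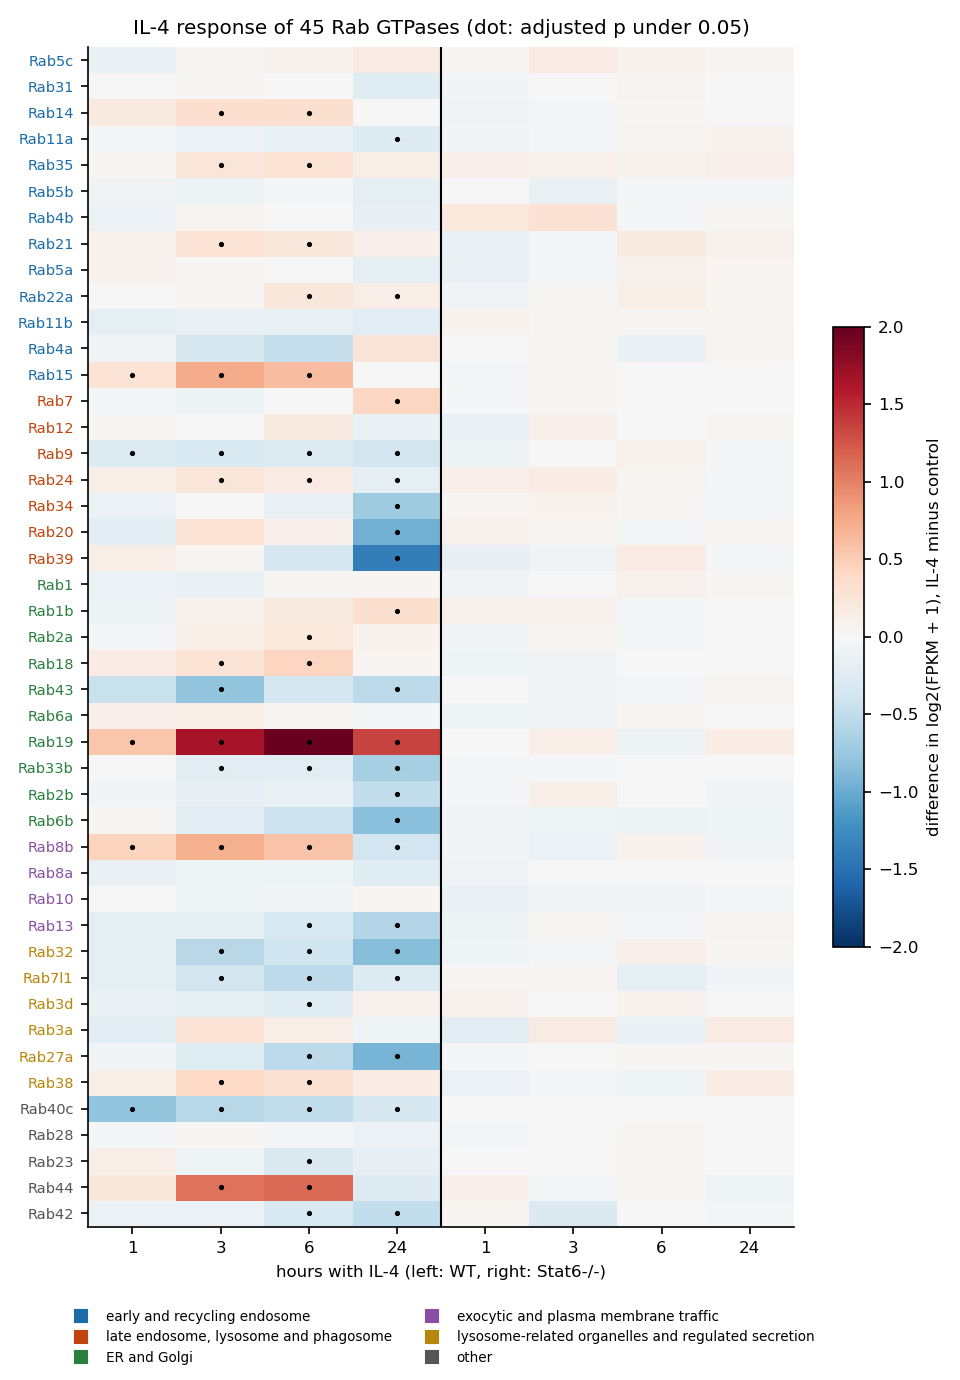
Difference in log2(FPKM + 1) between IL-4 and control for 45 Rab GTPases (rows, coloured by role and ordered by level) at 1, 3, 6 and 24 h in WT (left, 4 samples per group, 3 with IL-4 at 24 h) and Stat6-/- (right, 2 per group); black dots mark an adjusted p below 0.05. Dots occur in WT columns only, and Rab19 at 6 h has the largest value, 1.98. The dots of Rab15 and Rab38 are a description only.

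Among the 13 Rabs of the endoplasmic reticulum and Golgi (10 tested), Rab19 gave the largest IL-4 response of the family. Rab19, a little-studied Rab found at the Golgi, lies at chr6:39381428-39390379 (mm10, plus strand) and shares no 50-base word with another gene. Its level rose from 11.1, 11.7, 10.3 and 10.03 FPKM in controls to 16.3, 16.4, 16.1 and 16.1 FPKM at 1 h. It reached 32.3, 30.2, 30.0 and 32.0 FPKM at 3 h (controls 8.20 to 10.2) and 36.8, 35.9, 38.9 and 36.7 FPKM at 6 h, where controls were at 8.12, 10.2, 8.07 and 8.41 FPKM. At 24 h it was back to 21.2, 21.0 and 20.4 FPKM, still above the 7.25 to 8.02 FPKM of controls. The IL-4 and control samples did not overlap at any time. The log2 difference was 0.55 (SE 0.13, adjusted p = 0.00168) at 1 h, 1.64 (SE 0.13, adjusted p = 8.52e-14) at 3 h, 1.98 (SE 0.13, adjusted p = 3.05e-16) at 6 h and 1.35 (SE 0.14, adjusted p = 1.15e-10) at 24 h.

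Since STAT6 binds paired TTC and GAA half-sites with 4 bases between them, while other STATs favour a spacing of 3, the 250 bases before the RefSeq start (GRCm38.p6, the same build) were read for both forms. Each form reads the same on both strands, and the forms were searched separately. The promoters are shown for the genes with a 2-fold change in WT; of these, Rab19 and Rab39 have an entry and Rab44 has none. Capitals mark a half-site pair with a spacing of 3.
Rab19 (chr6:39381103-39381352, plus strand): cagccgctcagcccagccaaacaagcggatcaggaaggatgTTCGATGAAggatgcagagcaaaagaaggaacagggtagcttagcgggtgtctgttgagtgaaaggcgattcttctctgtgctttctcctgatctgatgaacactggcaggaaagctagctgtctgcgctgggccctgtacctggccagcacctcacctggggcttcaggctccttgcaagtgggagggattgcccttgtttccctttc
Rab39 (chr9:53706233-53706482, minus strand): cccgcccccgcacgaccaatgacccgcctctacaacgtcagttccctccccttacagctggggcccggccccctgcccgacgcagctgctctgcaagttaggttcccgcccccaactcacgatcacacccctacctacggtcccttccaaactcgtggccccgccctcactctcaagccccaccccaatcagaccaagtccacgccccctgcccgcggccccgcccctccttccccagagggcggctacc

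The Rab19 window held one pair with a spacing of 3, TTCGATGAA, and none with 4. The Rab39 window, rich in c and g, held neither. Over 60 promoters of 48 members, 2 (3.33%) had the spacing of 4, those of Rab5b (TTCTCCAGAA) and Rab11b (TTCGCTGGAA), which did not pass the test at any time. Among all 32851 RefSeq promoters of this length the share was 5.85%. The spacing of 3 was present in 5 of the 60 (8.33%), Rab11a, Rab15, Rab19, Rab25 and Rab34, beside 7.02% of all. These are matches of letters in a short window and say nothing about binding.

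The other Golgi and endoplasmic reticulum Rabs moved less and in both directions. Rab18, known from the endoplasmic reticulum and lipid droplets, was at 56.7, 55.1, 55.8 and 56.8 FPKM with 6 h of IL-4 and 43.5, 38.6, 42.8 and 41.3 FPKM in controls, without overlap, a difference of 0.43 (SE 0.08, adjusted p = 4.68e-05). Rab43, a Golgi Rab, was lower in every IL-4 sample at each time, with 20.9, 17.0, 19.7 and 21.1 FPKM at 3 h against 36.5, 32.4, 33.0 and 36.0 FPKM, a difference of -0.78 (SE 0.16, adjusted p = 0.000107). It passed the test at 3 and 24 h only, and 77.0% of its 50-base words also occur in the overlapping transcript Gm45140. Rab6b, the rarer isoform of the retrograde Golgi Rab6, fell at 24 h from 3.40, 4.79, 4.49 and 5.80 to 2.38, 1.69 and 2.32 FPKM (replicates 2 to 4 with IL-4), a difference of -0.84 (SE 0.22, adjusted p = 0.00176). Its paralog Rab6a, about 10 times as abundant, stood at 31.5, 34.4, 30.7 and 30.8 FPKM in those controls and 32.2, 31.6 and 30.5 FPKM with IL-4, a difference of -0.02 (SE 0.09, adjusted p = 0.893). Rab1b, which with Rab1 carries cargo from the endoplasmic reticulum to the Golgi, rose at 24 h from 103, 82.1, 98.2 and 100.2 to 122, 115 and 120.2 FPKM, by 0.31 (SE 0.10, adjusted p = 0.00555). Rab1 was at 106, 114 and 113 FPKM at that time and 105, 102, 109.9 and 113 FPKM in controls. Rab2a, which acts next to Rab1 in early secretion, rose at 6 h by 0.21 (SE 0.07) on the log2 scale. Some of these calls were lost when a WT replicate was left out, in part at nearly the same value. Rab1b at 24 h was lost without replicate 2 (0.23), and Rab6b (-0.73) and Rab43 (-0.47) at 24 h without replicate 3. Rab2a at 6 h was lost without replicate 2 or 4 (0.20 and 0.22). Rab33b, which acts at the Golgi and in autophagy, was at 4.08, 4.55 and 4.43 FPKM with 24 h of IL-4 and 7.07, 7.73, 7.67 and 7.31 FPKM in controls, without overlap, a difference of -0.66 (SE 0.08, adjusted p = 1.24e-08). Of its 50-base words 21.3% also occur in other genes, mostly Gm38160 on the opposite strand. For Rab6a the share was 20.6%, mostly with Mrpl48 on the opposite strand. Of the 10 tested genes of the group, 3 rose and 1 fell at 6 h, where 22.0% of all loci rose and 19.2% fell, and 2 rose and 4 fell at 24 h, beside 23.4% and 31.6%.

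In the early and recycling endosome group (15 members, 13 tested) 4 genes rose and none fell at 3 h, where 16.4% of all loci rose and 12.5% fell. At 6 h 5 rose and none fell, beside 22.0% and 19.2% of all loci, and at 24 h 1 rose and 1 fell, beside 23.4% and 31.6%. Rab15 is one of those that rose at 3 and 6 h. Rab14, which links the trans-Golgi network with endosomes and phagosomes, was the most abundant of those that rose. It was at 99.4, 105, 99.3 and 104 FPKM with 3 h of IL-4 and at 77.9, 78.6, 82.8 and 81.8 FPKM in controls, so that each IL-4 sample lay above each control. The difference was 0.34 (SE 0.07, adjusted p = 8.22e-05) at 3 h and 0.32 (SE 0.07, adjusted p = 0.000177) at 6 h, and -0.01 at 24 h. Rab21, of integrin endocytosis, and Rab35, of fast recycling, rose with it, by 0.28 and 0.24 at 3 h and by 0.23 and 0.27 at 6 h. Rab22a, another early endosome Rab, was higher by 0.22 (SE 0.05) at 6 h and by 0.14 (SE 0.06, adjusted p = 0.0482) at 24 h. The 24 h call was lost when any one WT replicate was left out (0.12 to 0.14), and that of Rab21 at 6 h without WT replicate 4 (0.20).

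Rab15, an endosomal Rab, was nearly undetected in controls. In the 4 WT controls at 3 h it was at 0.0741, 0.0593, 0.0186 and 0.0336 FPKM and with IL-4 at 1.05, 0.795, 0.722 and 0.492 FPKM. With 1 h of IL-4 it was already at 0.222, 0.265, 0.225 and 0.258 FPKM, at 6 h at 0.598, 0.704, 0.577 and 0.37 FPKM, and at 24 h it was listed at 0.0192, 0.021 and 0 FPKM, within the range of controls. The first 3 times showed no overlap with controls, and the log2 differences there were 0.27, 0.74 and 0.61. These are low levels and a description, since the gene entered the test through its IL-4 samples at 3 h. The locus overlaps Fntb on the opposite strand, but none of the 50-base words of its transcripts occurs in another gene.

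The Rab5 isoforms did not pass the test. Rab5c, Rab5b and Rab5a, which drive early endosome fusion, had log2 differences of 0.17 (SE 0.09), -0.19 (SE 0.08) and -0.18 (SE 0.09) at 24 h. Rab31, which acts between the trans-Golgi network and endosomes, was at 72.1, 79.0 and 79.6 FPKM with 24 h of IL-4. Controls were at 87.2, 82.6, 97.8 and 97.8 FPKM, so the groups did not overlap. The difference of -0.24 (SE 0.15, adjusted p = 0.159 by limma) missed the threshold. Its SE draws on all samples, among them Stat6-/- replicates at means of 95.8 and 70.9 FPKM. Rab11a of slow recycling fell at 24 h, from 53.5, 57.1, 56.5 and 49.2 to 46.8, 45.7 and 43.0 FPKM, a difference of -0.25 (SE 0.07, adjusted p = 0.00238). Rab4a of fast recycling was at 1.10, 1.06, 1.23 and 1.28 FPKM in controls and 0.609, 0.461, 0.512 and 0.741 FPKM with IL-4 at 6 h. These did not overlap either, and the difference of -0.46 (SE 0.39, adjusted p = 0.361) missed the threshold in a fit whose SE draws on all samples, among them Stat6-/- replicates at means of 1.32 and 5.68 FPKM.

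**Figure D3:**
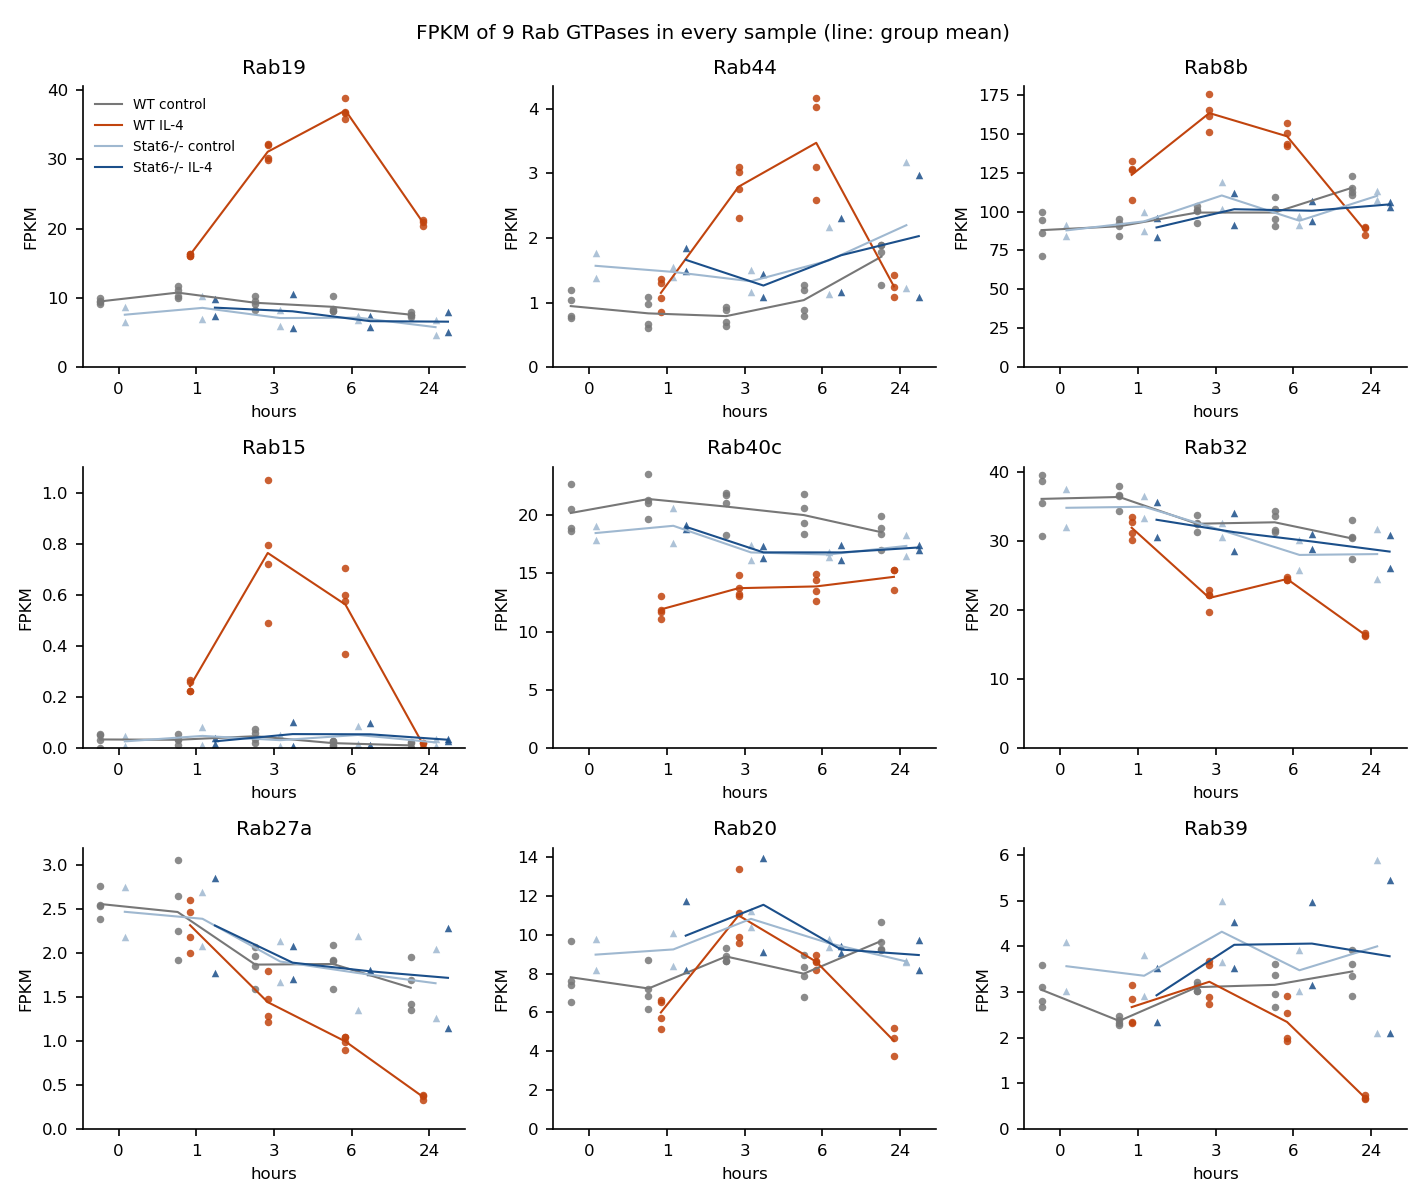
FPKM of 9 Rab GTPases in every sample against time, in hours on an even-spaced axis; grey and orange circles are WT controls and WT with IL-4, pale and dark blue triangles are Stat6-/- controls and Stat6-/- with IL-4, and lines join group means. Rab19, Rab44, Rab8b and Rab15 peak at 3 or 6 h in WT with IL-4, and Rab39, Rab20 and Rab27a are lowest there at 24 h.

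Late endosome, lysosome and phagosome Rabs (9 members, 7 tested) had 5 decreases and 1 increase at 24 h, where 31.6% of all loci fell and 23.4% rose, and a median difference of -0.37 beside -0.07 for all loci. Rab39, a Rab of phagosomes and autophagy (chr9:53684110-53706232, minus strand), showed the largest decrease of the family. Its values were 0.74, 0.666 and 0.671 FPKM with IL-4 at 24 h and 3.62, 3.92, 3.35 and 2.91 FPKM in controls. At 6 h the samples still overlapped, with 2.91, 2.55, 1.99 and 1.93 FPKM against 3.61, 2.96, 3.37 and 2.68 FPKM, and at 3 h they were at 2.74 to 3.68 and 3.03 to 3.21 FPKM. The decrease was called at 24 h alone, with -1.39 (SE 0.19, adjusted p = 6.36e-08) at 24 h and -0.32 (SE 0.17, adjusted p = 0.137) at 6 h.

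Rab20, which takes part in phagosome maturation in macrophages, was also lower at 24 h. Controls at 24 h were at 10.7, 9.25, 9.19 and 9.62 FPKM and IL-4 samples at 3.74, 5.17 and 4.68 FPKM, a difference of -0.96 (SE 0.12, adjusted p = 3.78e-08). At 3 h all 4 IL-4 samples, at 13.4, 9.55, 9.90 and 11.1 FPKM, were above all controls (8.62 to 9.30 FPKM), with a difference of 0.27 (SE 0.11, adjusted p = 0.0769) that missed the threshold. Part of the Rab20 transcript (22.9% of its 50-base words) also occurs in E230013L22Rik on the opposite strand. Rab34, which positions lysosomes, fell at 24 h, with a difference of -0.72 (SE 0.29, adjusted p = 0.0374), and Rab24, tied to autophagy, rose by 0.24 at 3 h and differed by -0.19 at 24 h. Of the 50-base words of Rab24, 41.0% also occur in Prelid1 on the opposite strand. Some calls in this group were lost when a replicate was left out. That of Rab34 was lost without any one WT replicate (-0.78 to -0.63, beside -0.72 with all). Those of Rab24 were lost without WT replicate 3 (0.19 at 3 h and -0.17 at 24 h). The Rab24 call at 24 h was also lost without replicate 2 and with quantile normalization (-0.19 and -0.16). Its call at 6 h (0.17) was lost when any one WT replicate was left out (0.14 to 0.20).

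Rab7 and Rab9, both of late endosomes, moved in opposite directions. Rab7, needed for fusion of late endosomes and phagosomes with lysosomes, was at 181, 169.6 and 183 FPKM with 24 h of IL-4 and at 126, 124, 137 and 146 FPKM in controls, without overlap. The difference was 0.42 (SE 0.14, adjusted p = 0.0135), and the call was lost when WT replicate 2 or 4 was left out (0.37 and 0.44). At 1, 3 and 6 h it was between -0.11 and 0.01 and did not pass. Rab9, which returns mannose 6-phosphate receptors to the Golgi, was lower in each IL-4 sample than in each control at all 4 times. At 24 h its values were 21.0, 22.3 and 22.8 FPKM against 27.6, 27.7, 30.2 and 29.5 FPKM, and the 4 differences lay between -0.37 and -0.27, each past the threshold. Without WT replicate 3 the calls at 1 and 6 h were lost (-0.24 and -0.24), and the first also without replicate 2 or 4 (-0.25 and -0.30).

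The 4 exocytic and plasma membrane Rabs were led by Rab8b. Rab8b, which like Rab8a moves carriers from the Golgi and recycling endosomes to the surface, was at 126, 128, 108 and 133 FPKM after 1 h of IL-4 and 84.2, 92.4, 95.1 and 90.5 FPKM in controls. It peaked at 161, 175, 165 and 151 FPKM at 3 h (controls 92.4 to 104), and by 24 h the order had turned, with 89.3, 89.97 and 84.8 FPKM in IL-4 samples and 115, 123, 113 and 110.4 FPKM in controls. The groups were apart at every time. The differences were 0.44 (SE 0.08, adjusted p = 9.3e-05), 0.71 (SE 0.08, adjusted p = 3.11e-09) and 0.58 (SE 0.08, adjusted p = 2.15e-07) at 1, 3 and 6 h and -0.39 (SE 0.09, adjusted p = 0.000314) at 24 h. Its paralog Rab8a had no called change, from -0.24 at 24 h to -0.08 at 6 h, and neither did Rab10, of surface delivery of transporters, from -0.08 to 0.03. Rab13, of cell junction traffic, fell at 6 and 24 h, with differences of -0.31 (SE 0.10) and -0.59 (SE 0.11); the former call was lost without WT replicate 3 (-0.24).

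Rabs of lysosome-related organelles and regulated secretion (11 members, 6 tested) had 2 decreases and 1 increase at 3 h (12.5% and 16.4% of all loci), 4 and 1 at 6 h (19.2% and 22.0%), and 3 and none at 24 h (31.6% and 23.4%), the increases being those of Rab38. Their median difference at 6 h was -0.32, beside -0.00022 for all loci. Rab32, which builds lysosome-related organelles and reaches the phagosome in macrophages, was the most abundant. It went from 32.6, 32.5, 33.7 and 31.3 to 22.9, 22.2, 22.2 and 19.8 FPKM at 3 h and from 33.0, 30.5, 30.6 and 27.4 to 16.2, 16.4 and 16.7 FPKM at 24 h. All IL-4 samples were below all controls at 1, 3, 6 and 24 h, and the differences were -0.56 (SE 0.08, adjusted p = 1.37e-07), -0.40 (SE 0.08, adjusted p = 3.55e-05) and -0.84 (SE 0.08, adjusted p = 4.84e-11) at the last 3 times. Its paralog Rab38 had the opposite sign at a far lower level, with 0.593, 0.548, 0.844 and 1.00 FPKM against 0.181, 0.23, 0.422 and 0.47 FPKM at 3 h, a difference of 0.40, given as a description because the gene entered the test through these IL-4 samples.

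Rab7l1, now named Rab29 and known to recruit the kinase LRRK2, fell at 6 h from 30.1, 34.3, 37.5 and 33.1 to 22.1, 23.0, 23.7 and 23.5 FPKM, a difference of -0.53 (SE 0.07, adjusted p = 7.83e-08), and was lower at 3 and 24 h also. Rab27a, which docks secretory granules and exosome-bearing bodies, fell at 6 and 24 h. With IL-4 it was at 1.05, 1.04, 0.989 and 0.898 FPKM at 6 h and 0.375, 0.392 and 0.326 FPKM at 24 h, where controls were at 2.09, 1.91, 1.91 and 1.58 and 1.95, 1.69, 1.42 and 1.36 FPKM. Both times were without overlap, with differences of -0.52 (SE 0.12, adjusted p = 0.000363) and -0.93 (SE 0.13, adjusted p = 1.09e-07). Rab3d, of granule exocytosis, differed by -0.24 (SE 0.08) at 6 h, a call that was lost without WT replicate 2 or 3 (-0.20 and -0.24), while Rab3a did not pass at any time.

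Of the 6 remaining Rabs (5 tested), Rab44 and Rab40c stood out in opposite directions. Rab44 is an atypical large Rab with calcium-binding motifs (chr17:29135056-29148976, plus strand). It was at 0.935, 0.697, 0.891 and 0.635 FPKM in controls and 3.10, 2.31, 3.02 and 2.75 FPKM with IL-4 at 3 h, and at 1.19, 0.798, 1.27 and 0.89 and 3.09, 2.60, 4.03 and 4.18 FPKM at 6 h. These groups were apart, by 1.08 (SE 0.17, adjusted p = 1.53e-06) and 1.13 (SE 0.17, adjusted p = 5.42e-07). At 24 h its controls had themselves reached 1.89, 1.28, 1.90 and 1.78 FPKM, and IL-4 samples were at 1.09, 1.42 and 1.24 FPKM, a difference of -0.26 (SE 0.18, adjusted p = 0.211). Rab40c, whose SOCS box joins it to a ubiquitin ligase, fell at all 4 times. After 1 h it was at 11.1, 11.8, 13.03 and 11.7 FPKM, against 23.5, 21.1, 21.3 and 19.7 FPKM in controls, and it stayed below controls without overlap at all times. The difference was largest at 1 h, -0.79 (SE 0.07, adjusted p = 7.35e-12), and smallest at 24 h, -0.31 (SE 0.07, adjusted p = 0.000478). Rab42 fell at 6 and 24 h, with differences of -0.31 (SE 0.12) and -0.49 (SE 0.13), and Rab23, known from Hedgehog signalling, at 6 h, with -0.29 (SE 0.08). At 6 h the call of Rab42 was lost without WT replicate 2, 3 or 4 (-0.31 to -0.27) and that of Rab23 without replicate 2 (-0.25).

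Summed by role, the levels of 4 of the 6 groups separated IL-4 from control samples at both 6 and 24 h. The lysosome-related and secretory group summed to 82.3 to 93.4 FPKM in WT controls at 6 h and 63.4 to 67.4 FPKM with IL-4, and to 78.7 to 86.5 and 61.2 to 63.3 FPKM at 24 h. The exocytic group was at 236 to 249.8 FPKM in controls and 273 to 294 FPKM with IL-4 at 6 h, and at 259.5 to 278 against 226 to 229.7 FPKM at 24 h, so its order turned as that of Rab8b did. The endoplasmic reticulum and Golgi group was higher with IL-4 at both times, at 419 to 459 against 362 to 394 FPKM at 6 h and 407 to 416 against 371 to 395 FPKM at 24 h. The 6 remaining Rabs were lower with IL-4, at 34.4 to 37.7 against 38.5 to 43.8 FPKM at 6 h and 31.4 to 35.1 against 38.05 to 41.2 FPKM at 24 h. Early and recycling endosome Rabs overlapped between the conditions at 6 h (692 to 775 against 644 to 712 FPKM) and at 24 h (676 to 698 against 667 to 719.9 FPKM). Late endosome, lysosome and phagosome Rabs overlapped too, at 227 to 242 against 219 to 243 FPKM at 6 h. At 24 h they were at 252 to 267 against 226 to 253 FPKM. A sum weighs abundant genes most, so its direction can differ from that of most genes in the group. The late endosome group had a mean of 259 FPKM with IL-4 and 241 FPKM in controls at 24 h. Yet 5 of its genes fell there and 1, the abundant Rab7, rose. In the endoplasmic reticulum and Golgi group 2 genes rose and 4 fell at 24 h. The sums are descriptions and were not tested.

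**Figure D4:**
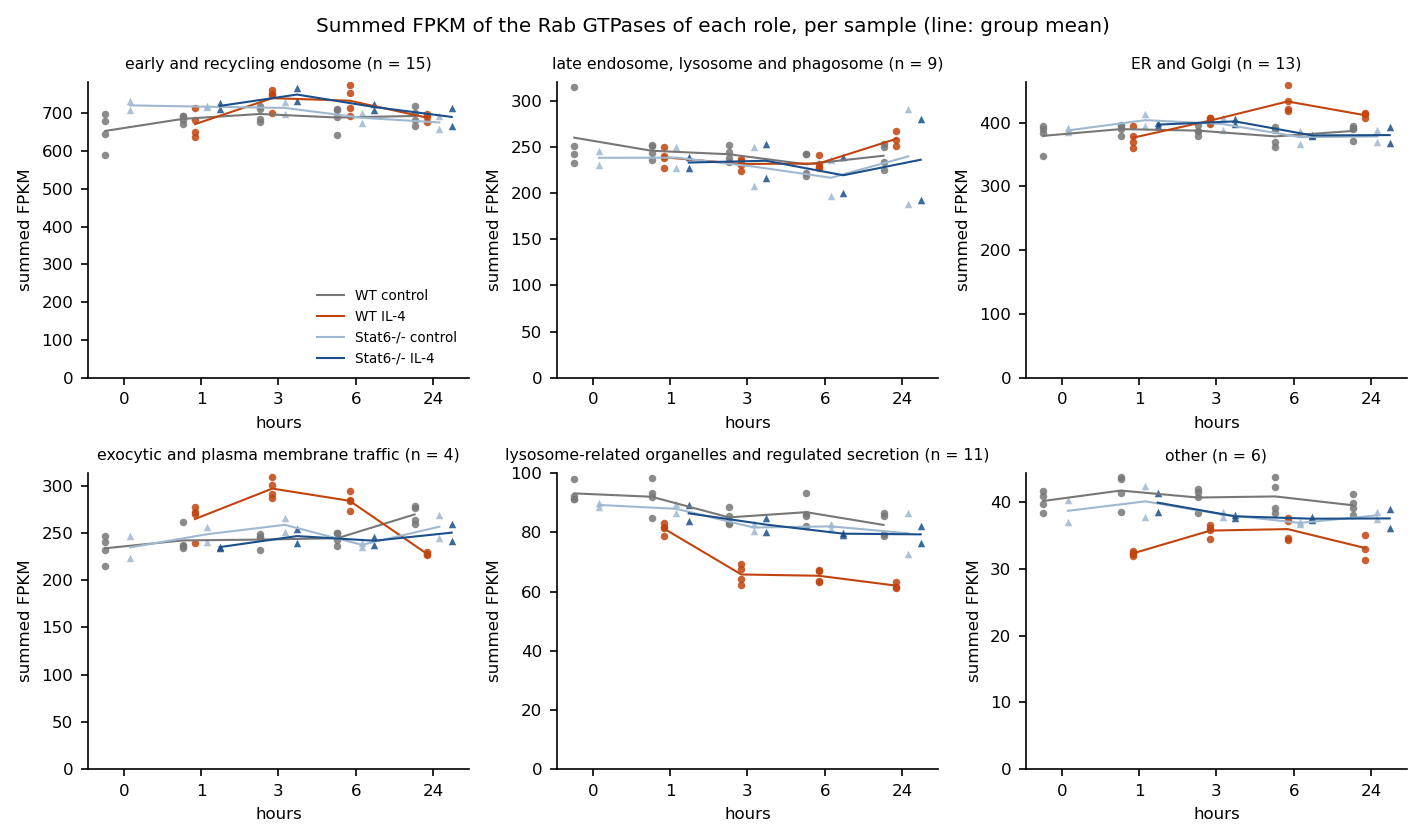
Summed FPKM of the Rab GTPases of each role, 1 point per sample, against time in hours on an even-spaced axis from 0 FPKM; colours and shapes separate genotype and treatment, and lines join group means. With IL-4 in WT the lysosome-related and secretory group falls to 61.2 to 63.3 FPKM at 24 h, and the exocytic group is above controls at 3 and 6 h and below them at 24 h.

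The comparison with Stat6-/- BMDMs asked whether these responses need STAT6. In Stat6-/- cells no Rab gene was called at any time, and 0.0% of all loci tested were called at 1, 3, 6 and 24 h. The counts of loci at an unadjusted p below 0.05 were 51, 131, 88 and 37, none of them a Rab gene, and Tukey's adjustment over all groups called none of the 45 either. Averaged over the 4 times, 1 locus (0.00897%) was called and no Rab gene, with Rab35 alone at an unadjusted p below 0.05 (difference 0.09 (SE 0.04)). Each of these groups held 2 samples. Fewer loci passed an unadjusted p of 0.05 than chance alone would give, also in the average over the 4 times. The test was strict in these cells, so a lack of calls does not show a lack of response. Rab19 was at 6.86 and 7.43 FPKM in Stat6-/- controls and 5.86 and 7.40 FPKM with IL-4 at 6 h, a difference of -0.10 (SE 0.18). Rab40c was at 17.6 and 20.6 and 18.9 and 19.2 FPKM at 1 h, Rab32 at 24.5 and 31.8 and 26.0 and 30.9 FPKM at 24 h, and Rab20 at 8.64 and 8.59 and 9.73 and 8.17 FPKM at 24 h, in each case controls first.

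The difference between the responses of the genotypes was tested itself. It passed for 2, 8, 7 and 8 of 45 Rab genes (4.44%, 17.8%, 15.6% and 17.8%) at 1, 3, 6 and 24 h, where 3.36%, 11.2%, 16.5% and 27.0% of all loci passed. In all 25 cases, over 15 genes, the gene had also changed in WT and in the same direction. Rab15 is among them at 3 and 6 h, and without it 7 and 6 genes passed. With the replicate number as a block more Rab genes passed, by the counts in the section on processing. Rab19 differed by 1.52 (SE 0.22, adjusted p = 1.38e-06), 2.08 (SE 0.22, adjusted p = 1.23e-09) and 1.20 (SE 0.22, adjusted p = 8.69e-05) at 3, 6 and 24 h, and Rab44 by 1.12 and 1.09 at 3 and 6 h. For Rab8b the value was 0.83 (SE 0.14, adjusted p = 2.58e-05) at 3 h. The decreases that differed were those of Rab40c at 1, 3 and 6 h (-0.79, -0.56 and -0.51), Rab32 at 3, 6 and 24 h (-0.54, -0.50 and -0.87), and Rab39, Rab20 and Rab27a at 24 h (-1.34, -0.9997 and -0.94). Responses of Rab7, Rab9, Rab43, Rab6b and Rab34 in WT did not pass this test at any time in the fit without a block. Its SE includes the spread between the Stat6-/- replicates. Their means were 13.25 and 6.13 FPKM for Rab34, 33.0 and 46.9 FPKM for Rab43 and 26.2 and 23.5 FPKM for Rab9. A missed call therefore does not show that the genotypes responded alike. Leaving out Stat6-/- replicate 1 ended the calls of Rab40c at 3 and 6 h (-0.47 and -0.45). At 1 h the Rab8b difference (0.50) was lost when WT replicate 1, 2 or 4 or either Stat6-/- replicate was left out (0.46 to 0.51). The Rab39 difference at 24 h was past the threshold in all of these but not in a fit of only the groups compared.

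At 0 h, Rab13 alone differed between the genotypes. This gene, named after its values were seen, stood apart, with 21.8, 15.1, 18.4 and 18.3 FPKM in WT and 12.7 and 12.2 FPKM in Stat6-/- samples, a difference of -0.51 (SE 0.12, adjusted p = 0.0155); this was 1 of 45 Rab genes, where 2.18% of all loci differed. Without the WT 0 h library of replicate 1 the difference was -0.43 (adjusted p = 0.0458). The call was lost when WT replicate 1 or 3 or Stat6-/- replicate 2 was left out at all times (-0.51 to -0.43), in a fit of these 2 groups alone, and between means over all control times (-0.32). Leaving out Stat6-/- replicate 1 gave 6 Rab genes that differed (13.3%), where 14.4% of all loci then did, and leaving out replicate 2 gave 2 (4.44%), beside 1.52%. The neutrophil and progenitor markers summed to 514 to 963 FPKM in Stat6-/- samples and 269 to 550.2 FPKM in WT controls, and their part in this difference was not tested.

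The 2 Stat6-/- replicates stood apart from each other at every time. Of the 45 genes, 5 were higher in replicate 2 in all 9 Stat6-/- groups and 12 were higher in replicate 1 in all 9. Rab4a was the most uneven, with means over the 9 groups of 1.32 FPKM in replicate 1 and 5.68 FPKM in replicate 2, a ratio of 4.31, while its highest WT sample was at 1.96 FPKM. Rab39 was 1.59 times, Rab43 1.42 times and Rab8a 1.32 times as high in replicate 2, and Rab34 was 2.16 times, Rab38 1.998 times and Rab44 1.69 times as high in replicate 1. With 1 sample of each number per group the replicates were not tested against each other, and the labels do not say what a replicate number stands for.

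**Figure D5:**
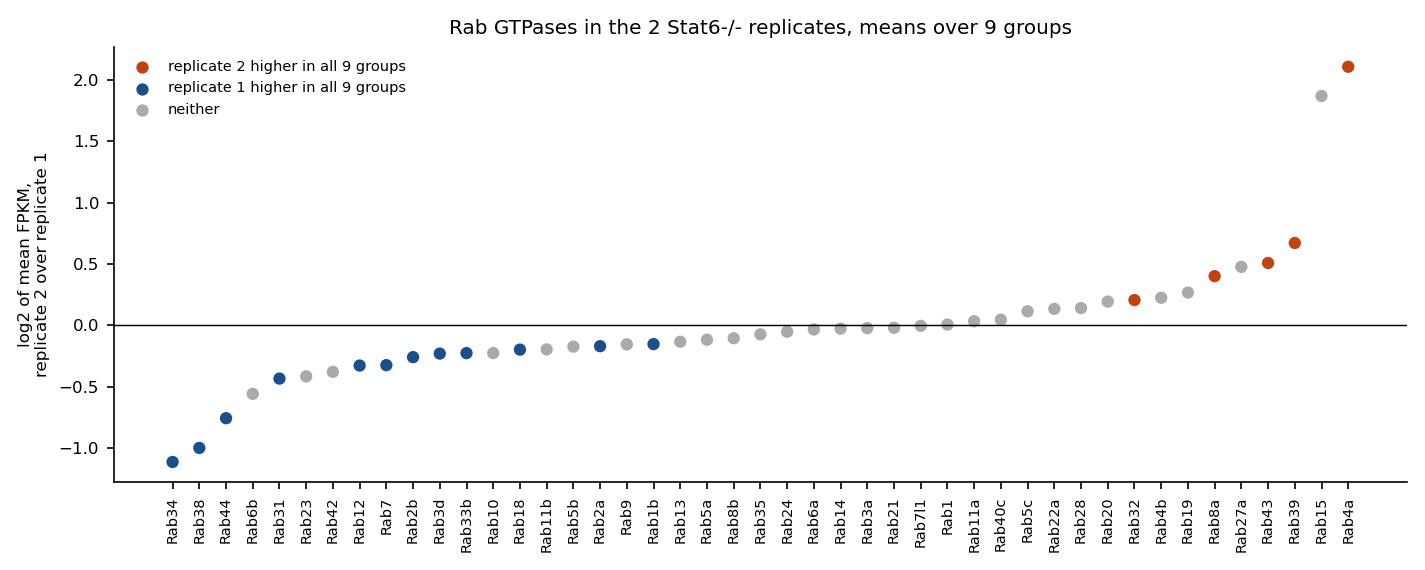
Ratio of the mean FPKM of Stat6-/- replicate 2 to that of replicate 1 over 9 groups, as log2, for 45 Rab GTPases in rising order; coloured points lie on the same side in all 9 groups. Rab4a, at a ratio of 4.31, and Rab34, 2.16 times as high in replicate 1, are at the ends.

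Some Rab genes also changed between the control times. Between 0 and 24 h in WT controls, 8 Rab genes (17.8%) changed, 6 up and 2 down, where 17.2% of all loci did. Rab8b rose from 71.5, 99.7, 94.8 and 86.2 to 115, 123, 113 and 110.4 FPKM, by 0.40 (SE 0.08, adjusted p = 0.00061), and Rab10 from 41.9, 61.0, 59.2 and 59.7 to 71.5, 71.6, 71.2 and 70.2 FPKM, by 0.37 (SE 0.09, adjusted p = 0.00416). Rab44 rose by 0.48 and Rab6a, Rab2b and Rab33b by 0.26, 0.33 and 0.25, while Rab27a fell by 0.45 and Rab32 by 0.24. Of the 50-base words of Rab2b, 71.9% also occur in other genes, mostly the overlapping Gm43766. Without the WT 0 h library of replicate 1 there were 6 calls, of which Rab8b, Rab10, Rab44, Rab27a and Rab32 were shared, Rab20 was added (0.38), and Rab6a, Rab2b and Rab33b were lost (0.10, 0.14 and 0.19). Leaving out any one WT replicate at all times left 2 to 4 calls, with Rab8b kept in each case and each of the other 7 lost in at least 1 of these fits, and leaving out either Stat6-/- replicate gave 16 (35.6%), where 31.3% and 31.4% of all loci were then called. In Stat6-/- controls no Rab gene changed over the same time (5 at an unadjusted p below 0.05), where 0.718% of all loci did; leaving out replicate 1 gave 3 calls (6.67%), beside 13.5% of all loci.

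Among the proteins that act on Rabs, Tbc1d16, Tbc1d4 and Rab3il1 had the largest increases. A list of 154 exchange factors, GTPase activating proteins (GAPs), effectors and tethers, and GDI or prenylation factors was followed, of which 152 were in the tables and 132 were tested. In WT, 12 rose and 8 fell at 1 h, 21 and 29 at 3 h, 26 and 35 at 6 h, and 23 and 54 at 24 h. Of all loci 5.67% rose and 3.72% fell at 1 h, and 16.4% and 12.5% at 3 h. At 6 h it was 22.0% and 19.2%, and at 24 h 23.4% and 31.6%. By class at 24 h, 9 exchange factors rose and 15 fell of 39, 5 GAPs rose and 15 fell of 35, 9 effectors and tethers rose and 19 fell of 50, and none of 8 GDI and prenylation factors rose while 5 fell, with medians of -0.04, -0.13, -0.13 and -0.36 beside -0.07 for all loci. Of the tested genes of the list, 15.2%, 37.9%, 46.2% and 58.3% were called over the 4 times from 1 to 24 h, beside 9.39%, 28.9%, 41.2% and 55.0% of all loci. The list was chosen with these results known, and the shares are a description.

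Tbc1d16, a GAP, had by far the largest response of the list. It was at 1.84 to 2.22 FPKM in controls and 21.2 to 24.6 FPKM with IL-4 at 3 h, a difference of 2.94 (SE 0.11, adjusted p = 2.25e-23), and 2.91 at 6 h. The response differed between genotypes by 3.09 (SE 0.19, adjusted p = 1.05e-15) at 3 h. Tbc1d4, the GAP of Rab10 and Rab8a in insulin-driven transporter traffic, went from 2.60 to 3.87 FPKM in controls to 10.6 to 14.9 FPKM with IL-4 at 6 h, by 1.76 (SE 0.17, adjusted p = 2.15e-11), and Tbc1d8 from 9.93 to 11.2 FPKM to 21.6 to 26.4 FPKM, by 1.13; both were lower than controls at 24 h (-0.53 and -0.57). Rab3il1, an exchange factor for Rab8 and Rab3 proteins, kept rising, from 64.7 to 82.8 FPKM in controls to 221 to 225 FPKM with IL-4 at 24 h, by 1.55 (SE 0.12, adjusted p = 2.25e-13).

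Decreases of at least 1 in log2(FPKM + 1) were found at 3 and 24 h. At 3 h the effectors Micall2, which binds Rab8 and Rab13 proteins, and Rilpl2, a Rab8 and Rab10 effector, fell by 1.23 and 1.07 on the log2 scale. Rilpl2 was at 66.5 to 73.1 FPKM in controls and 24.7 to 38.0 FPKM with IL-4. At 24 h the exchange factors Dennd4a (for Rab10), Dennd1c and Madd (for Rab3 and Rab27 proteins) fell by 1.30, 1.29 and 1.17, and the GAP-related Rabgap1l by 1.15. Madd was at 18.2 to 20.6 FPKM in controls and 7.56 to 8.61 FPKM with IL-4, and Dennd1c at 22.6 to 30.2 and 10.03 to 11.4 FPKM. Neither of these pairs overlapped.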

How the data were processed

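Poly-A RNA (1 µg of total RNA, TruSeq RNA kit) of 53 BMDM samples had been sequenced. The authors deposited FPKM values per gene locus, made per the submitters' processing notes with TopHat2 2.0.7 and Cufflinks 2.0.2 on mm10; the annotation is not given in the sources used here. Values of at most 1e-06 FPKM were set to 0. Samples were grouped by the labels' genotype, treatment and time.

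The 11146 loci that reached 1 FPKM in any sample entered the test as log2(FPKM + 1) with limma 3.58.1 in R 4.3.3, with 1 mean per group over all samples, a trend in the variance and Benjamini-Hochberg adjustment over these loci. IL-4 was compared with control of the same time in each genotype, the difference of these responses was tested, and genotypes at 0 h and controls at 24 and 0 h were compared. The code was tested on simulated data. Relative depth came from the commonest ratio of values under 1 FPKM to those of one sample, and the direct ratio was within 2% of it for 99.9% of 1378 sample pairs; sequencing depth limits the low genes most.

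The Rab genes, their roles and the list of proteins acting on them were chosen with earlier results of these data known. Named were genes past the test and 2-fold, the 5 largest changes in each direction at each time in WT, 16 genes fixed by role, the 5 highest at 0 h, and up to 5 list genes in each direction; others are given with short values or were chosen after their values were seen. Alternatives were a pseudocount of 0.1, no filter on low values, quantile normalization, scaling without the 10 most abundant loci, a fit of only the groups compared, the replicate number as a block, leaving out each replicate, and Tukey's adjustment; leaving out the WT 0 h library of replicate 1 was added after seeing the data. Promoters came from RefSeq (GRCm38.p6), which had 48 of the 58 genes.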

Additional observations from a re-analysis of the deposited data

Results flagged for a closer look

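Among 248 sets of 4 WT samples (31 named genes in each group of 4), 11 held a sample far from its 3 fellows by Dixon's criterion, where chance alone gives about 12.4 (1 in 20). Of these, 4 were the WT 0 h control of replicate 1: Rab1 at 90.1 FPKM (others 116 to 120.2), Rab10 at 41.9 FPKM (59.2 to 61.0), Rab5b at 33.0 FPKM (43.4 to 45.3) and Rab9 at 23.3 FPKM (29.5 to 30.6). In the same group Rab43 was at 27.5 FPKM in replicate 2 (33.0 to 33.8). At 1 h, Rab11a was at 41.9 FPKM in replicate 3 with IL-4 (49.6 to 51.1) and Rab2a at 45.4 FPKM in replicate 4 of the controls (47.2 to 47.3). Among controls at 3 h, Rab5a was at 34.9 FPKM in replicate 3 (30.2 to 30.9). Among controls at 6 h, Rab19 was at 10.2 FPKM in replicate 2 (8.07 to 8.41), Rab5b at 48.9 FPKM in replicate 4 (46.3 to 46.5) and Rab6a at 30.7 FPKM in replicate 1 (28.9 to 29.0).

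The response to IL-4 differed between WT and Stat6-/- BMDMs, by limma's test of that difference, in 25 cases. The values are log2 differences, WT response minus Stat6-/- response. Higher in WT were Rab19 (1.52 at 3 h, 2.08 at 6 h and 1.20 at 24 h), Rab44 (1.12 at 3 h and 1.09 at 6 h), Rab8b (0.50 at 1 h, 0.83 at 3 h and 0.48 at 6 h), Rab15 (0.71 at 3 h and 0.61 at 6 h), Rab14 (0.38 at 3 h) and Rab18 (0.43 at 6 h). Lower in WT at 24 h were Rab39 (-1.34), Rab20 (-0.9997), Rab27a (-0.94), Rab33b (-0.66), Rab13 (-0.65) and Rab11a (-0.33). Rab32 was lower at 3, 6 and 24 h (-0.54, -0.50 and -0.87), Rab40c at 1, 3 and 6 h (-0.79, -0.56 and -0.51), and Rab7l1 at 3 h (-0.40). Rab15 entered the test through its WT samples with 3 h of IL-4, so its values are a description.

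Several of these differences lost their call under an alternative. That of Rab18 was lost with quantile normalization, with scaling without the 10 most abundant loci, and without either Stat6-/- replicate or WT replicate 2, 3 or 4 (0.37 to 0.45). The Rab14 difference was lost without either Stat6-/- replicate or WT replicate 2 or 4 (0.33 to 0.44), and that of Rab7l1 without Stat6-/- replicate 2 or WT replicate 3 or 4 (-0.40 to -0.33). For Rab11a this happened in a fit of only the groups compared and without either Stat6-/- replicate or WT replicate 1 or 3 (-0.34 to -0.32). Rab8b at 1 h was lost in that fit, with both scalings, and without either Stat6-/- replicate or WT replicate 1, 2 or 4 (0.46 to 0.58), and at 6 h with quantile normalization and without Stat6-/- replicate 2 or WT replicate 2 (0.44 to 0.47). Rab40c at 3 and 6 h was lost without Stat6-/- replicate 1 (-0.47 and -0.45), and Rab39 in a fit of only the groups compared (-1.34).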

How the results depend on the processing

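In all, 111 differences were followed (each call of a Rab gene, and the 2-fold responses of the genes acting on Rabs). None changed sign under any alternative followed gene by gene, and 72 kept their call under all of these. Tukey's adjustment was followed as counts only and is not among them. Calls were lost for 1 with a pseudocount of 0.1, 5 without the filter on low values, 10 each with quantile normalization, with scaling without the 10 most abundant loci and in fits of only the groups compared, 7 to 25 when a replicate was left out, and 0 with the replicate block. Depth limits the low genes, such as Rab15 and Rab38. In WT at 6 h, Tukey's adjustment called 14 Rab genes in place of 22. A block for the replicate number gave 10, 21, 29 and 30 in place of 5, 16, 22 and 21 in WT at 1, 3, 6 and 24 h (Rab4a at 6 h among them, -0.46 with SE 0.09 and limma's adjusted p = 8.42e-05), 3 and 11 in place of 2 and 8 for the genotype difference at 1 and 3 h, 16 and 17 in place of 7 and 8 for the genotype difference at 6 and 24 h, 19 in place of 8 in WT controls and 5 in place of 0 in Stat6-/- controls. IL-4 and control samples of the same time and number deviated together in 13 of 15 WT pairs (correlation over 0.1) and 8 of 8 Stat6-/- pairs. Of the samples, 29 of 35 WT and 18 of 18 Stat6-/- correlated best with their own number. With 2 Stat6-/- samples per group, the deviations of the 2 replicates mirror each other, so the Stat6-/- counts repeat each correlation. This is a hint from the data and not from the design. The genotype difference at 1 h called 1 gene in place of 2 with either scaling and in a fit of only the groups compared, and 1 to 2 when a replicate was left out. At 0 h the genotypes differed in 0 genes in place of 1 in a fit of only the groups compared and between means over control times, and in 0 to 6 when a replicate was left out. Leaving out a replicate gave 2 to 16 in WT controls and 0 to 3 in Stat6-/- controls. The cause was not tested.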

Other observations

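Replicate numbers also kept an order in WT for a few Rab genes. Rab6b was highest in replicate 4 in 8 of 9 WT groups and lowest in replicate 1 in 8. Rab31 and Rab2b were highest in replicate 4 in 8 of 9 groups, and Rab27a was lowest in replicate 4 in 8. In Stat6-/- samples Rab31 was at means of 95.8 FPKM in replicate 1 and 70.9 FPKM in replicate 2, and Rab7 at 152 and 121 FPKM, each higher in replicate 1 in 9 of 9 groups. These are values per replicate number over all times and treatments, and no test was run on them.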
